A study of Mustela putorius furo with 2 samples.

Results

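The cytosolic ribosomal protein genes encode the proteins of the large (RPL) and small (RPS) subunits of the ribosome that translates nuclear mRNA. They were taken by name, as symbols made of RPL or RPS and a number with an optional suffix, the stalk genes RPLP0 to RPLP2, and RPSA, with RPS6 kinases left out. Of 86 names that fitted, 78 had at least 1 UMI (unique molecular identifier, a tag that marks 1 captured RNA molecule), among 21317 genes with a UMI. They were 47 large subunit and 31 small subunit names, and 76 of the 78 were protein-coding symbols in RefSeq (ferret assembly ASM1176430v1.1). RPS12, RPL36A, RPL41, RPLP1, RPS4Y1, RPS4Y2, RPL10L and RPL39L had no UMI and were treated as not measured.

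The data are droplet single-cell RNA sequencing of dissociated dorsal cortex from wild-type ferret pups (Mustela putorius furo) at postnatal day 3, in 1 group of 2 replicate libraries. The barcodes carried 2 suffixes, called library A (9782 cells, 41836475 UMIs) and library B (5005 cells, 18907140 UMIs) here, and 21 barcodes occurred under both. The labels tie neither suffix to a replicate, nor do they say whether the replicates were separate animals, so p-values measure only how differences between cell classes varied across these 2 samples, which may be technical. As a check of the labelled tissue, the cortical excitatory neuron gene NEUROD6 was at 310 CPM (counts per 1000000 UMIs) in library A and 305 CPM in library B.

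Growing cells make most of these proteins in step, because a ribosome holds a single copy of nearly each ribosomal protein. Their mRNAs begin with a run of pyrimidines (the 5′ TOP motif) through which mTOR signalling and the RNA-binding protein LARP1 regulate their translation together with that of elongation factors. Several members have a second copy gene, such as RPL22L1 beside RPL22 and RPS27L beside RPS27. The ferret cortex at this age holds outer radial glia and other neural progenitors, intermediate progenitors marked by EOMES, young neurons, and the first glial precursors.

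Cells were assigned to classes by UMIs of marker genes, none of them a ribosomal protein gene. HOPX glia carried HOPX with CLU, SLC1A3, FAM107A, TNC or AQP4, genes of radial glia and astrocytes. EOMES progenitors carried EOMES with NEUROG2, NEUROG1, NEUROD4, NHLH1 or PPP1R17. Gliogenic progenitors carried EGFR and OLIG1 and lacked PDGFRA, which marks the oligodendrocyte precursors. Excitatory neurons, inhibitory neurons, endothelial cells and microglia were taken by NEUROD2 and NEUROD6, DLX and GAD, CLDN5 and FLT1, and CSF1R and C1Q genes among others. The 3 progenitor classes were split into dividing cells (at least 3 UMIs of at least 2 G2 and M phase genes) and non-dividing cells (at most 1 UMI of G2, M and S phase genes). Neurons were taken among non-dividing cells, excitatory ones without EOMES and outside the deep-layer gate given below, and the other classes from both. In all, 7986 of 14773 cells entered a class, and 11 of 16 classes had at least 20 cells in each library. Class names rest on these markers alone. The comparisons of each other class with non-dividing EOMES progenitors share those cells, as do those with non-dividing HOPX glia and those with non-dividing gliogenic progenitors.

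Together the 78 genes held 7901430 of 60743615 UMIs, or 13.0% of library A and 13.1% of library B. Among the 11 classes with at least 20 cells in each library, the share differed by more between the highest and the lowest class than between the libraries of any class. Non-dividing gliogenic progenitors had the highest share, at 16.4% in library A (60 cells) and 18.7% in library B (28 cells). Non-dividing EOMES progenitors followed at 15.6% (285 cells) and 15.8% (109 cells), and excitatory neurons at 13.7% (2730 cells) and 14.05% (1187 cells). None of these 3 classes overlapped with another.

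The next 4 classes lay close together and overlapped, all between 12.5% and 13.1%. Dividing gliogenic progenitors had 13.1% in library A (66 cells) and 12.6% in library B (33 cells), and endothelial cells had 13.1% (99 cells) and 13.0% (295 cells). Microglia had 12.9% (147 cells) and 12.5% (149 cells), and oligodendrocyte precursors 12.7% (203 cells) and 12.8% (74 cells). Below them came dividing EOMES progenitors at 12.1% (323 cells) and 12.3% (135 cells). Inhibitory neurons had 11.1% (766 cells) and 12.04% (194 cells), and their higher library nearly reached dividing EOMES progenitors. HOPX glia were lowest of the 11 classes, at 10.1% (317 cells) and 9.94% (159 cells) when dividing, and at 10.4% (283 cells) and 10.7% (168 cells) when not dividing.

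Among the 11 classes with at least 20 cells in each library, the highest mean (17.6% ± 1.61, SD, n = 2 libraries) was 1.75 times the lowest (10.0% ± 0.0837, SD, n = 2), and the libraries differed by at most 2.27 percentage points within a class. Exact binomial intervals at 95%, which cover counting error only, were widest among these classes for gliogenic progenitors in library B, at 18.4% to 18.9%. With 2 libraries a side, an exact two-sided permutation test of a share cannot go below p = 0.333, so shares are given without a test. Cells in no class numbered 4396 in library A and 2391 in library B, and their share was 13.3% in each.

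**Figure D1:**
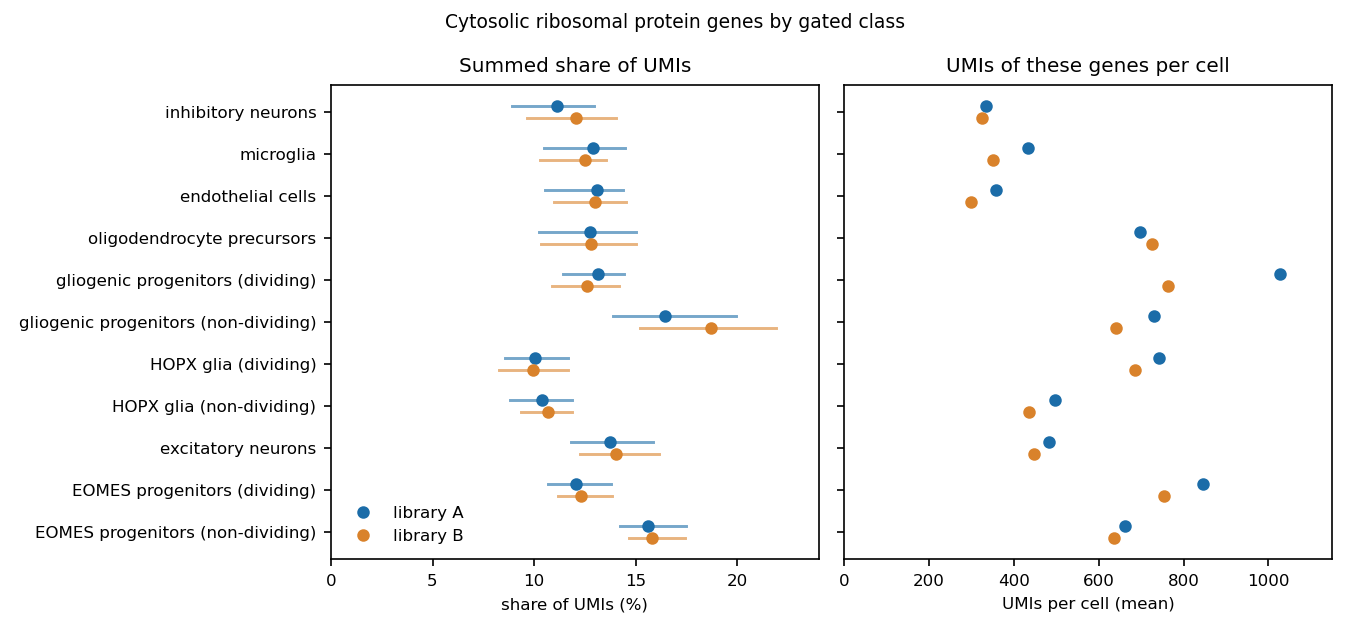
Left, UMIs of the ribosomal protein genes as a percentage of all UMIs in each of the 11 classes fitted (points, sum of all cells of a library; lines, quartiles of single cells). Right, mean UMIs of these genes per cell. Of these 11, non-dividing gliogenic progenitors had the highest share (16.4% and 18.7%) and dividing HOPX glia the lowest (10.1% and 9.94%), whereas the mean UMIs per cell were highest in dividing gliogenic progenitors.

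A share does not follow the number of ribosomal protein UMIs in a cell, because classes differ in total UMIs. Dividing EOMES progenitors held 845 and 753 such UMIs per cell in libraries A and B, against 661 and 637 in non-dividing ones, and their median totals were 6739 and 5832 UMIs against 3964 and 3629. Dividing HOPX glia held 742 and 686 per cell, against 496 and 436 in non-dividing ones. In both lineages the dividing cells therefore had more ribosomal protein UMIs per cell in each library and a lower share. The gates count raw UMIs, so cells of more UMIs pass the dividing gate more easily, and the part of this was not tested. Inhibitory neurons had 334 and 324 per cell and endothelial cells 357 and 299. Whether a class held more of these RNAs or less of all others cannot be told apart from shares and CPM, and all fold changes below are relative to the other genes of the same cells.

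The other 5 classes were too small for the test and are given as values. Glia gated by CRYAB, which encodes a small heat shock protein, had a share of 12.6% in library A (21 cells) and 11.5% in library B (15 cells), and mural cells and fibroblasts 10.8% (41 and 17 cells). Ependymal cells had 9.13% (5 cells) and 10.4% (21 cells), and erythroid cells 5.85% (7 cells) and 7.71% (5 cells). Cells gated by the deep-layer genes FEZF2, TLE4, FOXP2, SYT6 and HS3ST4 had 11.5% (31 cells) and 10.7% (13 cells), but the summed HOPX glia markers stood there at 1218 CPM and 986 CPM, against 55.5 CPM and 68.4 CPM in the other excitatory neurons, so they are named by their gate and not called deep-layer neurons.

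The large subunit genes took between 52.0% and 54.6% of the ribosomal protein UMIs in each of the 22 class and library sums, so the balance between subunits hardly moved with class. Among the single genes, RPL10, which joins the large subunit late in its assembly, had the highest mean level at 3618 CPM. It was followed by RPS15 at 3313 CPM, RPS27A, which is made as a fusion with ubiquitin, at 3264 CPM, RPS24 at 3246 CPM and RPL9 at 3104 CPM. Levels of different genes also depend on how well each is captured and annotated, so this order is not an order of RNA amounts. Ribosomal protein genes have many near-identical pseudogenes, and how reads that match several of them were counted is not given in the sources used here.

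For 62 of 77 genes the highest of the 22 sums was in non-dividing gliogenic progenitors, for most of them in library B (28 cells). That was the smallest of the 22 sums, at 95972 UMIs, and how many of all genes peaked there was not counted. The lowest sum was in HOPX glia for 53 genes and in inhibitory neurons for 20. The ratio of a gene's highest to its lowest sum had a median of 2.12. RPL3L, the heart and skeletal muscle copy of RPL3 in mouse and human, had 24 UMIs in all cells and entered no test.

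The members did not all follow the sum. As a measure of this, the standard deviation over the 22 sums of a gene's log2 share of all ribosomal protein UMIs had a median of 0.16. It was 0.69 for RPL22L1, 0.66 for RPS27L, 0.61 for RPL26L1 and 0.36 for RPL7L1, all of them copy genes of another member. The next were RPLP2, a protein of the stalk that recruits elongation factors (0.33), and RPL13 (0.32). At the other end RPS15A and RPL35 had 0.076 and 0.077.

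**Figure D2:**
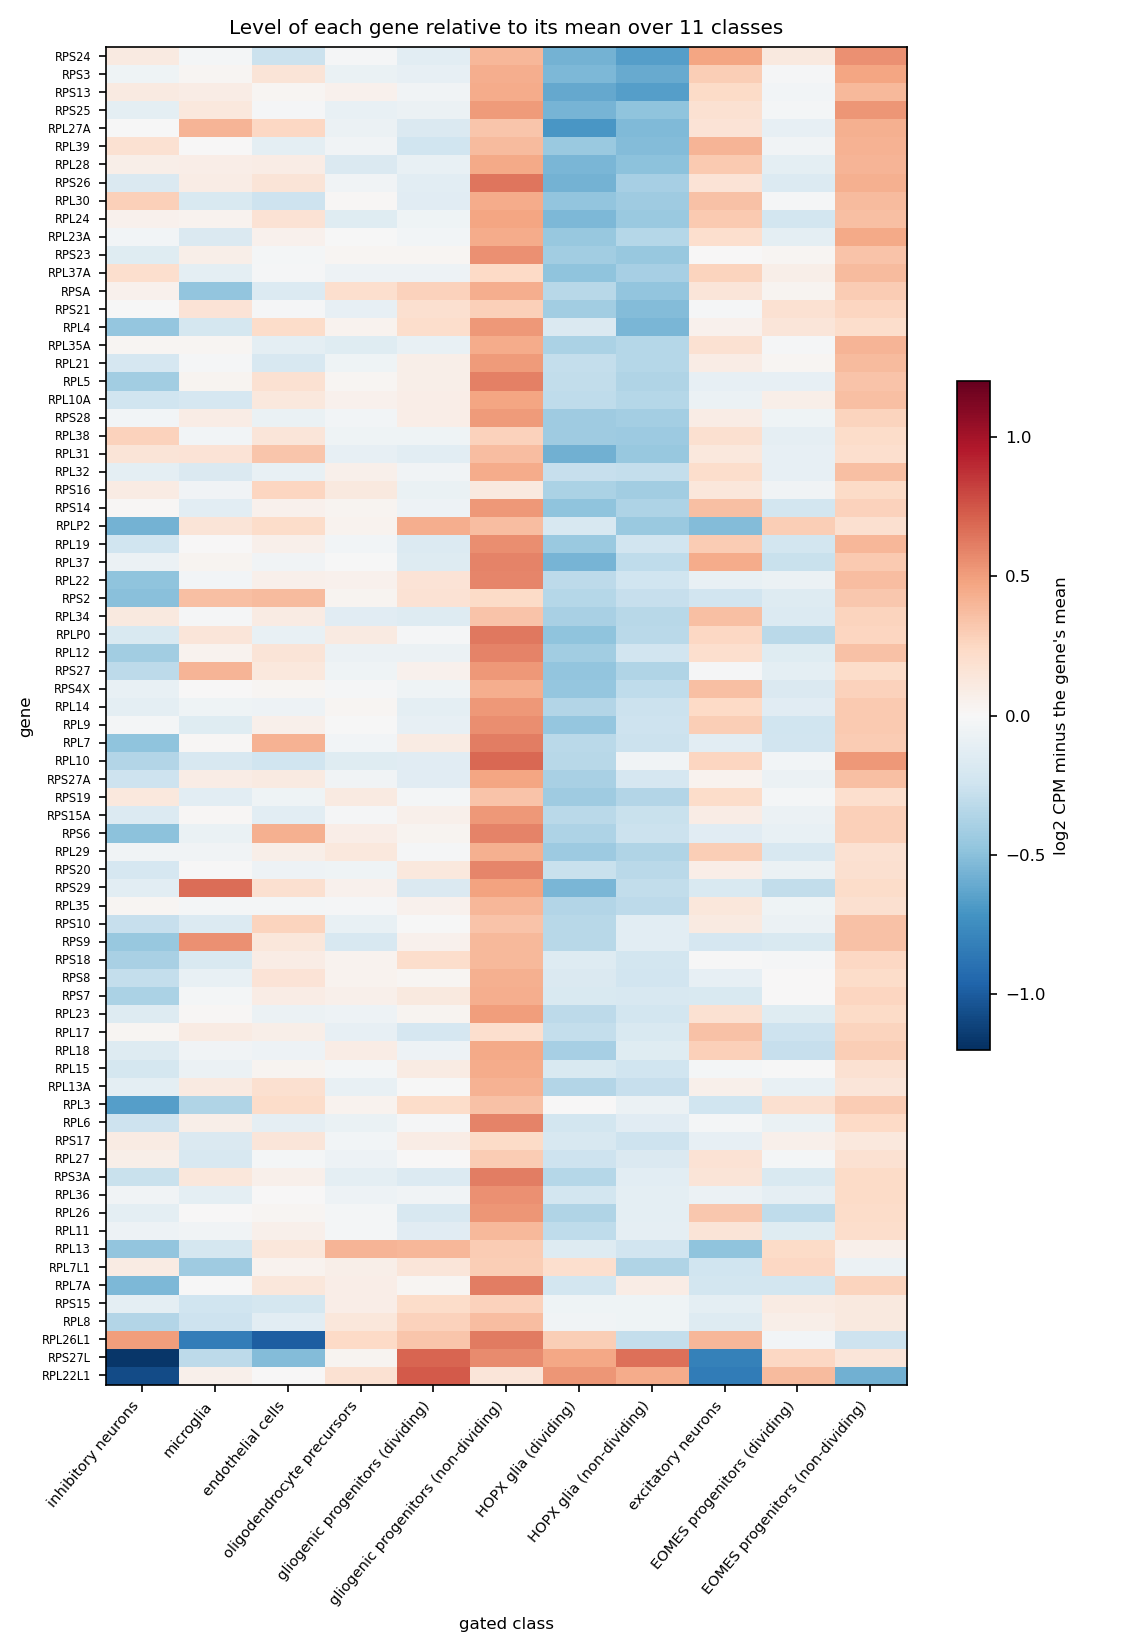
Each row is 1 of 74 ribosomal protein genes and each column 1 of the 11 classes fitted, ordered from top to bottom by the difference between non-dividing HOPX glia and non-dividing EOMES progenitors, with the lowest at the top. Colour gives the log2 of the mean CPM of both libraries minus the gene's mean over the 11 classes. Most rows were high in non-dividing gliogenic and EOMES progenitors and low in HOPX glia, while RPL22L1, RPS27L and RPL26L1 at the bottom had patterns of their own.

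Over the 11 classes fitted, RPL22L1 and RPS27L both had their lowest class means in neurons and higher ones in non-dividing HOPX glia. RPL22L1 stood at 104 CPM in library A and 109 CPM in library B in inhibitory neurons, at 115 and 135 CPM in excitatory neurons, and at 129 and 171 CPM in non-dividing EOMES progenitors. Inhibitory neurons stood below the others, while excitatory neurons and non-dividing EOMES progenitors overlapped. Dividing EOMES progenitors had 286 and 295 CPM, non-dividing HOPX glia 288 and 323 CPM, dividing HOPX glia 315 and 330 CPM, and dividing gliogenic progenitors 360.1 and 385 CPM. Its partner RPL22 was also lowest in inhibitory neurons among these classes (656 and 658 CPM), but it had 776 and 695 CPM in dividing HOPX glia, against 1192 and 1171 CPM in non-dividing EOMES progenitors.

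RPS27L, a target of p53 in human cells, had 138 and 142 CPM in inhibitory neurons and 177 and 181 CPM in excitatory neurons. It had 322 and 374 CPM in non-dividing EOMES progenitors, 542 and 455 CPM in non-dividing HOPX glia and 517 and 417 CPM in non-dividing gliogenic progenitors. Endothelial cells (204 and 234 CPM) and microglia (262 and 243 CPM) lay between the neurons and the neural progenitors. RPS27 itself was highest in gliogenic progenitors that did not divide (2362 and 2479.9 CPM) and in microglia (2435 and 2064 CPM).

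**Figure D3:**
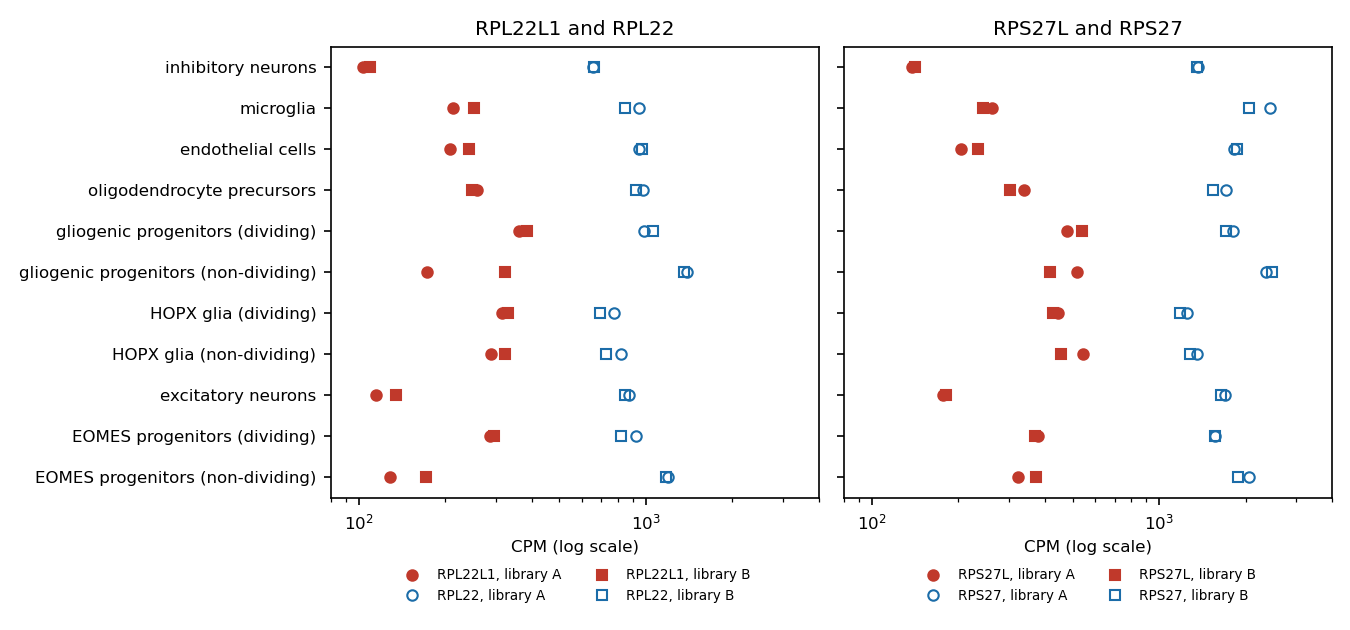
CPM on a log scale of RPL22L1 with RPL22 (left) and of RPS27L with RPS27 (right) in each of the 11 classes fitted, filled symbols for the copy gene, open ones for its partner, circles for library A and squares for library B. Of these 11, RPL22L1 and RPS27L were lowest in inhibitory neurons (104 and 109 CPM, and 138 and 142 CPM). Both copy genes were higher, and RPL22 and RPS27 lower, in non-dividing HOPX glia than in non-dividing EOMES progenitors.

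Differences between classes were tested with edgeR's quasi-likelihood test on UMIs summed per class and library, in 1 fit over all 11 classes with library as a block, and p-values were adjusted by the Benjamini-Hochberg method over all 11606 genes tested. A gene was called at an adjusted p under 0.05, and 77 ribosomal protein genes were tested. The first comparison set HOPX glia against EOMES progenitors, both non-dividing. Nearly all members were lower in HOPX glia: 70 of 77 were called lower, where 18.3% of all genes were, and 2 were called higher, where 21% were. The median log2 fold change of the members was −0.57, against 0.0041 over all genes.

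RPS24 had 1915 and 2062 CPM in HOPX glia, against 4427 and 4778 CPM in EOMES progenitors (log2 fold change −1.21, SE 0.073, adjusted p = 2.7e-24). RPS3, which lines the entry of the mRNA channel, had 535 and 530 CPM, against 1108 and 1132 CPM (−1.07, SE 0.093, adjusted p = 2.1e-16). RPS13, RPS25 and RPL27A had log2 fold changes of −1.05, −1.002 and −0.96. The 2 libraries of each class did not overlap with those of the other for any of these 5 genes. The 5 genes were chosen as the largest called decreases with the same sign in both libraries, so this adds no support. RPL10 and RPL9 fell less, by 0.56 each. RPS15 (−0.16), RPL7A, RPL8, RPL26L1 and RPL7L1 were not called.

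The 2 members higher in HOPX glia were the copy genes described above. RPL22L1 was higher by 1.07 (SE 0.14, adjusted p = 4.5e-10) and RPS27L by 0.56 (SE 0.11, adjusted p = 2.1e-05), each higher in both libraries. Immediate early genes, which respond to dissociation, summed to 3749 and 3595 CPM in HOPX glia, against 1528 and 1667 CPM in EOMES progenitors, and their part in the difference was not tested.

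Non-dividing gliogenic progenitors were set against the same EOMES progenitors. The difference in the sum was small here, and few single genes were called: 7 of 77 higher, where 7.94% of all genes were, and 0 lower, where 6.37% were, a share of members near the background. Called or not, 61 of 77 values were above 0, and the median log2 fold change was 0.12, against −0.012 over all genes. How many of all genes lay above 0 was not counted. RPS20 had 3435 and 3928 CPM in gliogenic progenitors, against 2889 and 2724 CPM in EOMES progenitors (0.33, SE 0.084, adjusted p = 0.0023). RPS27L was higher by 0.46 (SE 0.15, adjusted p = 0.021), RPS3A by 0.31, RPLP0, the base of the ribosomal stalk, by 0.30 and RPL7A by 0.29, and RPL26 and RPL6 were also called. RPL22L1 had 173 and 323 CPM, against 129 and 171 CPM, and was not called (0.56, adjusted p = 0.0575). The count was 31 when gates were read on cells thinned to 1500 UMIs, 20 when scaled to library totals, 13 by DESeq2 and 0 when the sums were thinned. Gliogenic progenitors also had 1.60% and 1.97% mitochondrial UMIs against 1.13% and 1.38%, and 4218 and 3709 CPM of immediate early genes against 1528 and 1667 CPM, and the part of either was not tested.

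Oligodendrocyte precursors were compared with non-dividing gliogenic progenitors. Their ribosomal protein genes were lower as a block: 70 of 77 were called lower, where 3.84% of all genes were, and 0 higher, where 4.65% were, with a median log2 fold change of −0.49. RPL10 had 3066 and 3287 CPM in precursors, against 5205 and 6168 CPM in gliogenic progenitors (−0.89, SE 0.080, adjusted p = 3.3e-14). RPS3A, RPS26, RPL7 and RPL12 fell by 0.75, 0.72, 0.71 and 0.69. RPL22L1 was not called, at 259 and 248 CPM against 173 and 323 CPM. RPL13, RPS16, RPL4, RPL39, RPL26L1 and RPL7L1 were not called either. The precursor gate takes dividing and non-dividing cells, whereas the gliogenic one takes only non-dividing cells, and median depth was 5081 and 4803 UMIs against 3936.5 and 3240.5. Immediate early genes summed to 1867 and 1985 CPM in precursors, against 4218 and 3709 CPM in gliogenic progenitors. The part of these in the difference was not tested. With every cell thinned to 1500 UMIs the count was 32.

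**Figure D4:**
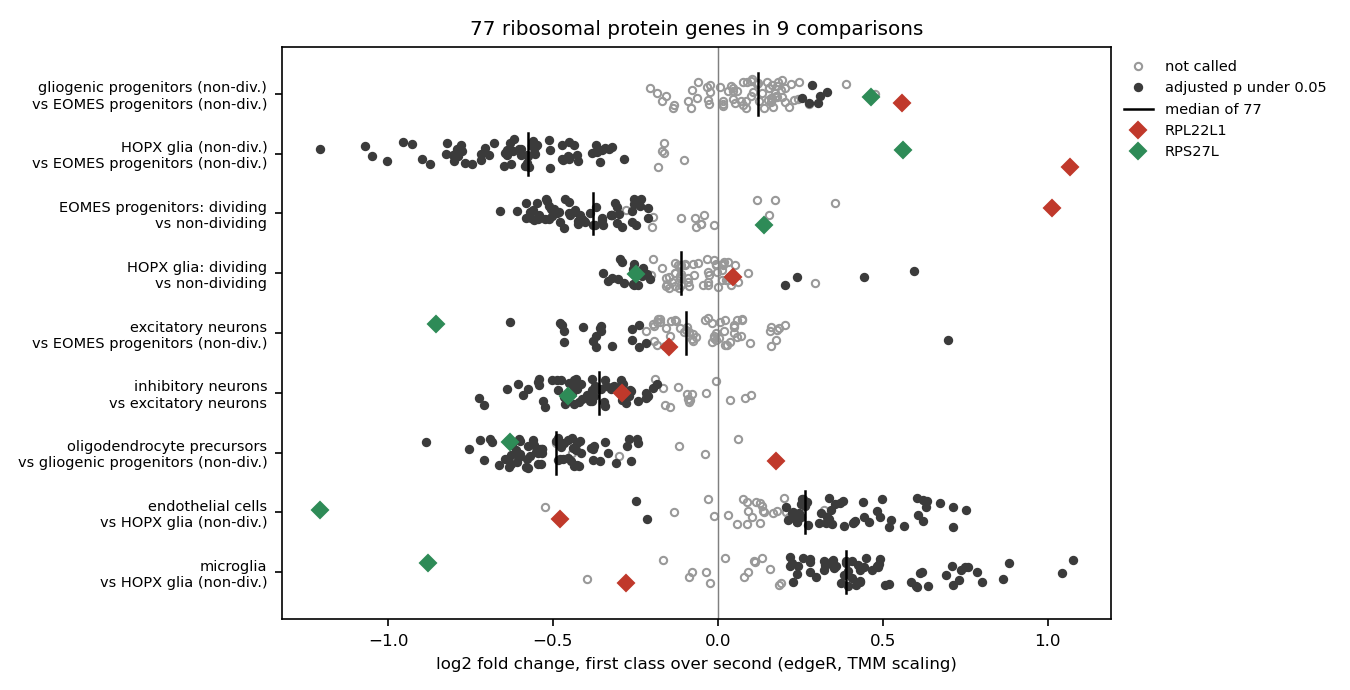
Log2 fold changes of the 77 ribosomal protein genes tested in 9 comparisons (first class over second), filled where the adjusted p was under 0.05, with the median as a bar. Diamonds mark RPL22L1 (red) and RPS27L (green). The members moved together in most comparisons, and in HOPX glia against EOMES progenitors the 2 diamonds were higher while 70 other genes were lower.

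Division was examined within EOMES progenitors and within HOPX glia. In EOMES progenitors the dividing cells had lower levels of 61 of 77 members, where 12.1% of all genes were called lower, and a higher level of 1, where 14.8% were called higher. The median log2 fold change was −0.38. RPL19 had 2404 and 2561 CPM in dividing cells, against 3659 and 3967 CPM in non-dividing cells (−0.61, SE 0.073, adjusted p = 1.2e-10). RPL37, RPS26 and RPLP0 fell by 0.58, 0.58 and 0.57. RPS15 did not differ detectably, at 3571 and 3469 CPM against 3643 and 3505 CPM (−0.013, SE 0.070, adjusted p = 0.94). The 1 gene called higher was RPL22L1, which had 286 and 295 CPM in dividing cells, against 129 and 171 CPM in non-dividing cells (1.01, SE 0.13, adjusted p = 2.2e-09).

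In HOPX glia fewer members were called between dividing and non-dividing cells. Of 77 members 17 were called lower, where 11% of all genes were, and 4 higher, where 13.1% were, with a median log2 fold change of −0.11. RPL7A had 1934 and 1937 CPM in dividing cells, against 2314 and 2489.5 CPM in non-dividing cells (−0.35, SE 0.077, adjusted p = 0.00026). RPL10, RPL18 and RPL37 fell by 0.33, 0.30 and 0.30. RPL26L1 (0.59), RPL7L1 (0.44) and RPLP2 (0.20) were among those higher. RPL22L1 stood at 315 and 330 CPM in dividing cells, against 288 and 323 CPM in non-dividing cells, and was not called. The count of 17 ran from 6 without the library block to 43 with gates read on thinned counts.

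The difference between the 2 lineages was tested as an interaction in the same fit. The division change was higher (less negative or positive) in HOPX glia for 20 of 77 members, where 3.98% of all genes were called higher, and lower for 1, where 4.68% were called lower. RPS3 had 551 and 564 CPM in dividing HOPX glia, against 535 and 530 CPM in non-dividing HOPX glia. In EOMES progenitors it had 759 and 837 CPM in dividing cells, against 1108 and 1132 CPM in non-dividing cells, so its changes differed by 0.51 (SE 0.13, adjusted p = 0.0040). RPS24, RPL5, which carries the 5S RNA with RPL11, and RPL24 differed by 0.47, 0.46 and 0.44. RPL22L1 differed the other way, by −0.97 (SE 0.17, adjusted p = 2.8e-05), and this was called in all 15 alternatives with a test, between −1.23 and −0.75. The count of 20 did not hold as well: it was 0 when gates were read on thinned counts, 1 with stricter gates, 3 in cells of 3000 to 6000 UMIs and 49 in a fit of these classes alone. Dividing cells were deeper in both lineages, at a median of 7047 and 6904 UMIs in dividing HOPX glia, against 4753 and 4112 in non-dividing ones.

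**Figure D5:**
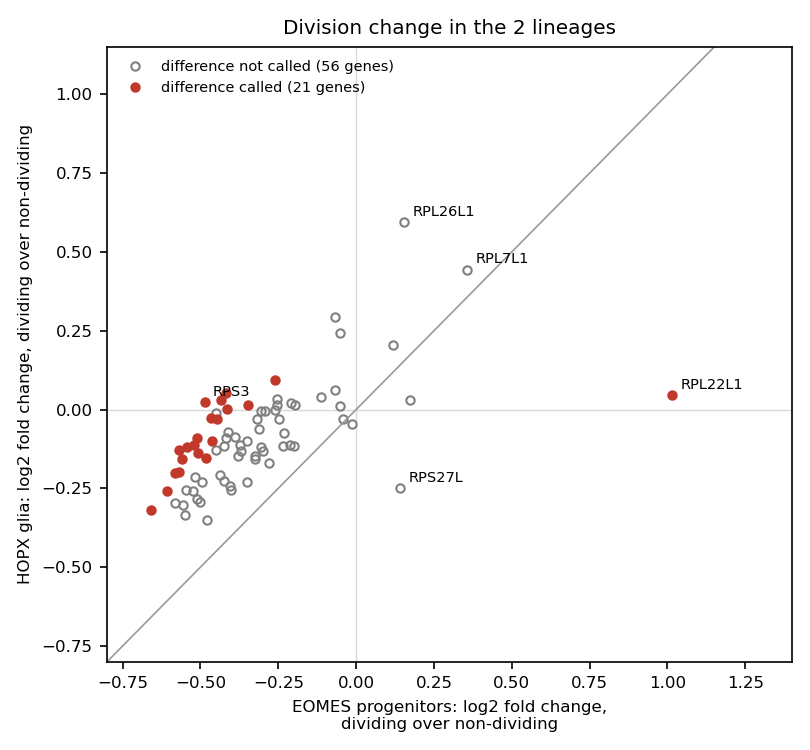
Log2 fold change of dividing over non-dividing cells in EOMES progenitors (horizontal axis) and in HOPX glia (vertical axis) for 77 ribosomal protein genes, with the line of equal change. Red marks the 21 genes whose changes were called different, which were 20 above the line and RPL22L1 below it, at 1.01 in EOMES progenitors and 0.045 in HOPX glia.

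Excitatory neurons were compared with non-dividing EOMES progenitors, from which they arise. A minority of members was lower: 19 of 77, where 9.79% of all genes were called lower, and 1 was higher, where 11.4% were, with a median log2 fold change of −0.097 against 0.043 over all genes. RPS27L had 177 and 181 CPM in neurons, against 322 and 374 CPM in progenitors (−0.85, SE 0.11, adjusted p = 1.1e-09). RPLP2 had 1391 and 1271 CPM, against 2208 and 2155 CPM (−0.63, SE 0.074, adjusted p = 9.9e-11). RPS9, RPL3, whose protein lies at the peptidyl transferase centre, and RPS2 fell by 0.48, 0.47 and 0.47. RPL26L1 was the 1 gene called higher, with 76.0 and 73.2 CPM against 49.6 and 45.5 CPM (0.70, SE 0.19, adjusted p = 0.0033). RPS24 was not called, at 4279 and 4462 CPM against 4427 and 4778 CPM. Scaled to library totals, 36 members were called lower.

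Inhibitory neurons were compared with excitatory neurons. Members were lower in inhibitory neurons: 61 of 77 were called, where 13.7% of all genes were called lower, and 0 were higher, where 11.6% were, with a median log2 fold change of −0.36. RPL12 had 1077 and 1264 CPM in inhibitory neurons, against 1753 and 1846 CPM in excitatory neurons (−0.72, SE 0.080, adjusted p = 3.9e-12). RPL10, RPL19, RPL37 and RPL4 fell by 0.71, 0.64, 0.61 and 0.59, and RPS27L by 0.45. RPLP2, RPL13 and RPS15, 3 of the 16 members not called, were at similar levels in both: RPL13 had 1360.1 and 1488 CPM in inhibitory neurons, against 1350.5 and 1476 CPM in excitatory neurons. The count was 37 with gates read on thinned counts. Scaled to library totals, all genes split as 1781 higher and 1336 lower, in place of 1341 and 1587.

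With non-dividing cells set by G2 and M genes alone, an alternative chosen after seeing the data, the FEZF2, TLE4 and FOXP2 gate held at least 20 cells in each library and could be fitted. Against the other excitatory neurons, 69 of 77 ribosomal protein genes were called lower, where 8.82% of all 11834 genes were, and 1 higher, where 8.5% were, by edgeR (median log2 fold change −0.54). Markers of HOPX glia were high in these cells under the gate given above and their part in this difference was not tested.

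Cells of other origin were set against non-dividing HOPX glia. In endothelial cells 50 of 77 members were called higher, where 22% of all genes were, and 4 lower, where 19% were, with a median log2 fold change of 0.26. RPL31 had 322 and 308 CPM in endothelial cells, against 203 and 160.1 CPM in HOPX glia (0.75, SE 0.13, adjusted p = 3.2e-06). RPS3 and RPL27A were higher by 0.71 each, RPL4 by 0.67, and RPS6, the substrate of S6 kinase, by 0.63. The 4 lower genes were RPS27L (−1.21), RPL22L1 (−0.48), RPL10 (−0.25) and RPS15 (−0.22). Small subunit genes were called higher in 26 of 31 cases and large subunit genes in 24 of 46.

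In microglia 60 of 77 members were called higher than in HOPX glia, where 20.3% of all genes were, and 1 lower, where 18.3% were, with a median log2 fold change of 0.39. RPS29 had 3099 and 2319 CPM in microglia, against 1451 and 1319.7 CPM in HOPX glia (1.08, SE 0.082, adjusted p = 4.1e-19). RPL27A was higher by 1.04, RPS27 by 0.88, RPS13 by 0.86 and RPS21 by 0.80. RPS27L was the 1 gene called lower (−0.88, SE 0.13, adjusted p = 1.6e-08).

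Markers of excitatory neurons were found in both classes, and the source of this RNA was not tested. They summed to 419 and 413 CPM in endothelial cells and 341 and 343 CPM in microglia. The sums were 51.8 and 80.03 CPM in HOPX glia and 2522 and 2486 CPM in excitatory neurons. Of the 7 genes of that list, 6 or 7 were detected in each library of both classes, as in HOPX glia. Mitochondrial UMIs were 3.45% and 4.18% in endothelial cells and 2.83% and 2.99% in microglia, against 0.819% and 0.908% in HOPX glia, and median depth was 2256 and 1941 UMIs and 2225 and 2056 UMIs, against 4753 and 4112 UMIs. Immediate early genes summed to 1935 and 2280.2 CPM in endothelial cells and 6665 and 5258 CPM in microglia, against 3749 and 3595 CPM in HOPX glia. The part of these in the differences was not tested.

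Other genes of translation were followed as lists, and the percentage after each count is the share of all 11606 genes called in the same direction. Of 20 translation factors and ribosome partners, most of them with the same 5′ motif in human cells, 18 were lower in HOPX glia than in EOMES progenitors (18.3%) and 1 was higher (21%), with a median log2 fold change of −0.55. In inhibitory against excitatory neurons 18 were lower (13.7%, median −0.50). In oligodendrocyte precursors against gliogenic progenitors 12 were lower (3.84%, median −0.53), and in dividing against non-dividing EOMES progenitors 12 were lower (12.1%, median −0.33). EEF1A1, the factor that brings aminoacyl-tRNA to the ribosome, had 3028 and 3119.6 CPM in HOPX glia, against 5369 and 5662 CPM in EOMES progenitors (−0.84, SE 0.071, adjusted p = 6.1e-17). The poly(A)-binding protein gene PABPC1 fell by 1.14 and the initiation factor gene EIF4B by 0.89 there. Fewer were called elsewhere. In microglia against HOPX glia 7 were higher (20.3%) and 1 lower (18.3%), led by TPT1 (1.45), and in endothelial cells 8 were higher (22%) and 2 lower (19%). In gliogenic against EOMES progenitors 3 were higher (7.94%), led by EEF1D (1.07), in dividing HOPX glia 5 were lower (11%), and in excitatory neurons 1 was lower (9.79%), EIF3F (−0.37).

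Of 26 genes of ribosome assembly in the nucleolus, 7 were higher in dividing EOMES progenitors (14.8% of all genes) and 0 lower (12.1%), with a median of 0.23. In dividing HOPX glia 8 were higher (13.1%) and 0 lower (11%), with a median of 0.57. The other members of the list were not called in division. DKC1, the pseudouridine synthase of ribosomal RNA, had 59.1 and 72.5 CPM in dividing EOMES progenitors, against 31.4 and 20.5 CPM in non-dividing ones (1.16, SE 0.26, adjusted p = 0.00024). In HOPX glia it had 60.3 and 52.0 CPM in dividing cells, against 19.97 and 18.9 CPM in non-dividing cells (1.501, SE 0.26, adjusted p = 4.4e-06). In the other comparisons the shares were near or below the background. There were 4 genes lower in HOPX glia against EOMES progenitors (18.3%), led by NOP2 (−1.95). NOP2 had a low level, at 1.48 and 4.37 CPM in HOPX glia, against 9.92 and 9.11 CPM in EOMES progenitors. In inhibitory neurons 4 were lower (13.7%), led by RRP9 (−0.76). In endothelial cells 6 were higher (22%), and in microglia 3 were higher (20.3%) and 1 lower (18.3%). In excitatory neurons 2 were higher (11.4%) and in oligodendrocyte precursors 1 was (4.65%), NCL (0.77), and in gliogenic progenitors 0 were called.

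Of 12 genes that control translation, between 0 and 5 were called in any comparison. The 5 were 2 higher and 3 lower in HOPX glia against EOMES progenitors, where 21% and 18.3% of all genes were called. In dividing EOMES progenitors 2 were higher (14.8%) and 2 lower (12.1%), and in dividing HOPX glia 3 were higher (13.1%) and 1 lower (11%). In inhibitory neurons 0 were higher (11.6%) and 2 lower (13.7%), and in microglia 2 were higher (20.3%) and 1 lower (18.3%). RHEB, the GTPase that activates mTOR, had 540 and 549 CPM in dividing EOMES progenitors, against 213 and 253 CPM in non-dividing ones (1.26, SE 0.11, adjusted p = 2.2e-15), and was higher by 0.79 in dividing HOPX glia. MYCN, a transcription factor that drives growth genes, was lower in HOPX glia than in EOMES progenitors (−1.86) and in inhibitory than in excitatory neurons (−0.99), at between 8.73 and 59.7 CPM in these classes. EIF4EBP1, the repressor that mTOR inactivates, had 99.4 and 88.2 CPM in microglia, against 25.9 and 30.6 CPM in HOPX glia (1.88, SE 0.25, adjusted p = 2.1e-09).

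Across the 22 sums, the genes outside the group whose log2 CPM lay closest to the log2 ribosomal protein share, of 7435 with a mean of at least 20 CPM, were headed by EEF1A1 (Pearson r = 0.95). It was followed by NOP53 (0.91), LOC101675539 (0.90), BTF3 (0.88), RACK1, a protein bound to the small subunit (0.87), EIF3L (0.86), LOC101694119 (0.85), LOC101681854 (0.84), SLC25A3 (0.84) and MYCL (0.84). The sums share 2 libraries, depth differences and the same total, so these values are descriptions. Not all translation factors were close: EEF1D had r = 0.11 and TPT1 0.29.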

How the data were processed

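Per the submitters' processing notes, the counts were made with Cell Ranger; no version and no genome build is given in the sources used here. The authors deposited raw UMI counts of both libraries in 1 matrix, without normalization. The lowest total of any deposited cell was 1501 UMIs in each library, so shallower cells were already absent. Cells under 500 genes or over 10% mitochondrial UMIs were left out (14 cells). The 466 cells that passed gates of 2 lineages entered no class, which also removes doublets of 2 lineages; no doublet caller was run. UMIs were summed per class and library (22 sums) and tested with edgeR 4.0.16 in R 4.3.3: TMM scaling, filterByExpr, a quasi-likelihood fit with class and library, 10 residual degrees of freedom, Benjamini-Hochberg adjustment over 11606 genes. CPM is UMIs per 1000000 UMIs of the sum. DESeq2 1.42.0 was an alternative. The script was tested on simulated data. Tables were made with Python 3.11.15, numpy 2.4.6, pandas 2.3.3 and scipy 1.17.1.

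Median depth was 3602.5 UMIs per cell in library A and 3068 in library B. Named genes were, per comparison, up to 5 called members in each direction with the largest change and the same sign in both libraries. The 5 members with the highest mean CPM, the copy genes and up to 3 called genes of each other list were also named. So were the 10 genes most like the summed share. Other genes named in the text were chosen after their values were seen. The members, gates, lists and tests were chosen with earlier results of these data known. A planned comparison of deep-layer with other excitatory neurons was left out because 1 library held fewer than 20 such cells. The alternatives were other scalings, filters, tests, gates, cell filters and depths. Some genes that the naming rule takes are not reported here.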

Additional observations from a re-analysis of the deposited data

Results flagged for a closer look

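The division change differed between HOPX glia and EOMES progenitors, by the interaction test of edgeR, for 20 of 77 members that were higher in HOPX glia, where 3.98% of all genes were, and 1 that was lower, where 4.68% were. The differences of the log2 changes were 0.51 for RPS3, 0.47 for RPS24, 0.46 for RPL5, 0.44 for RPL24 and −0.97 for RPL22L1. With gates read on thinned counts 0 members were called higher, with stricter gates 1, without the library block 3 and in cells of 3000 to 6000 UMIs 3. In each of these fits RPL22L1 was still called lower, and the cause of the drop was not tested.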

How the results depend on the processing

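Counts of called members stayed within 1.5 times of the value given, under every alternative that could be fitted, for HOPX glia against EOMES progenitors (68 to 73 lower), dividing EOMES progenitors (48 to 64 lower), endothelial cells (35 to 63 higher) and microglia (43 to 67 higher). The others moved, and the cause was not tested. For gliogenic against EOMES progenitors (7 higher) the count was 20 with library totals, 3 with no filter, 13 by DESeq2, 2 without the library block, 31 with gates read on thinned counts and 0 with thinned sums. For dividing HOPX glia (17 lower) it was 7 with no filter, 28 by DESeq2, 6 without the block, 34 with stricter gates, 43 with thinned gates, 32 at 5% mitochondrial UMIs and 27 with cells of 2 lineages kept. For excitatory neurons (19 lower) it was 36 with library totals and 33 in a fit of the 2 classes alone. It was 37 with thinned gates for inhibitory neurons (61 lower) and 32 with thinned sums for oligodendrocyte precursors (70 lower). For the interaction (20 higher) it was 10 with DESeq2 size factors, 34 with library totals, 10 with no filter, 3 without the block, 49 in a fit of these classes alone, 1 with stricter gates, 0 with thinned gates, 11 with thinned sums and 13 at 5% mitochondrial UMIs. Under the 2 alternatives added after the data were seen it was 3 in cells of 3000 to 6000 UMIs and 11 with non-dividing cells set by G2 and M genes alone.

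Of 165 called results for named genes, 161 kept their sign in every alternative and 97 were called in all with a test. The 4 that reversed were GNL3 in dividing EOMES progenitors (−1.33 with thinned gates), EIF4B in the interaction (−0.095 with thinned gates), DKC1 in microglia (−0.18 in cells of 3000 to 6000 UMIs) and MYCN in endothelial cells (−0.52 without library B). Uncalled values were followed over the alternatives for RPL22L1 and RPS27L only. Their reversals were RPS27L in dividing EOMES progenitors (−0.23), RPL22L1 in oligodendrocyte precursors (−0.096) and RPL22L1 in dividing HOPX glia (−0.21), all with thinned gates. The last was also −0.013 with DESeq2 size factors, −0.012 by DESeq2, −0.077 with stricter gates, −0.037 at 5% mitochondrial UMIs, −0.028 with cells of 2 lineages kept and −0.071 by G2 and M genes alone. No alternative moved a class share by more than 1.10 times, and in all 9 with both libraries gliogenic progenitors were highest and dividing HOPX glia lowest of the 11 classes fitted. Leaving out a library leaves no residual degrees of freedom, so it gives values without a test. Library totals shifted the median of all genes by over 0.1 in microglia only, by −0.11. The 2 libraries and the small gliogenic class (60 and 28 cells) limit the precision. The division gates count raw UMIs, so they favour deep cells as dividing and shallow cells as non-dividing. The part of this depth gap in the division contrasts was not tested.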
